A study of Mus musculus with 16 samples.

Results

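The myosin heavy and light chain genes of the mouse heart were followed in 8 members, namely the heavy chain genes Myh6, Myh7 and Myh7b, the light chain genes Myl2, Myl3, Myl4 and Myl7, and the light chain kinase gene Mylk3. They are 8 of 22372 rows of a table that names genes by Ensembl identifier, all of which matched the mouse annotation. The rule that picked them lists symbols, and the list was chosen with earlier results of these data known. RNA came from pieces of heart ventricles of C57BL/6J mice, 10 to 12 weeks old when the experiment began. Mice had either transverse aortic constriction (TAC), in which a suture narrows the aortic arch and loads the left ventricle with pressure, or a sham operation that left out the suture. Each surgery was combined with vehicle or with THZ1, a small molecule that binds covalently to the transcriptional kinase Cdk7 and also to Cdk12 and Cdk13. This gave the groups Sham-Veh and TAC-Veh, which had vehicle, and Sham-THZ1 and TAC-THZ1, which had the drug, with 4 mice in each. Per the labels, THZ1 was given intraperitoneally at 10 mg/kg b.i.d. from postoperative day 1 to day 60. The drug was given to the whole animal, and the tissue pieces hold all cell types of the ventricle. Each library held from 21431703 to 35812869 reads counted in genes, of which 33.2 to 44.7% were mitochondrial.

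A myosin molecule of heart muscle holds a pair of heavy chains, and each heavy chain carries an essential and a regulatory light chain. In the mouse ventricle Myh6 encodes the fast alpha heavy chain, which dominates in the adult, and Myh7 the slower beta heavy chain, which dominates before birth and is known to return under pressure overload and when thyroid hormone is low. Myh7b encodes a related heavy chain of slow muscle. Myl2 and Myl3 encode the regulatory and essential light chains of the ventricle, Myl7 and Myl4 their atrial counterparts, and Mylk3 the cardiac kinase that phosphorylates the regulatory light chain.

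Myh6 (ENSMUSG00000040752, chromosome 14, 55560758 to 55585764, minus strand, build NCBIM37, also called mm9) and Myh7 (ENSMUSG00000053093, chromosome 14, 55589525 to 55613471, minus strand) are neighbours and close copies. Their coding sequences were identical at 91.6% of 5805 aligned bases, against 72.2% for Myh7 and Myh7b. The libraries were read in 40 bases, and of the 40-base windows along the longest coding transcript, 1652 of 6040 (27.4%) of Myh6 were also found letter for letter in Myh7. None of the windows of the other 6 members was shared with another protein-coding gene. The sequences below are shown because they decide whether a read can be assigned to Myh6 or to Myh7. The first pair is the stretch of 60 coding bases within a single exon that differed most, at 24 positions in capitals. It lies in exon 25 of Myh6 (chr14:55571114-55571173, NCBIM37) and exon 27 of Myh7 (chr14:55599189-55599248), both on the minus strand.
Myh6: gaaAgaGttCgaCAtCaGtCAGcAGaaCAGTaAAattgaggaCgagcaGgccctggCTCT
Myh7: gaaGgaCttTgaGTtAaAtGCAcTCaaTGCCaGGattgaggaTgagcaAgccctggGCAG
The longest identical stretch within a single exon ran over 200 bases in exon 36 of Myh6 (chr14:55563185-55563384) and exon 38 of Myh7 (chr14:55591595-55591794), and a 40-base read from inside it fits both genes.
Myh6 and Myh7: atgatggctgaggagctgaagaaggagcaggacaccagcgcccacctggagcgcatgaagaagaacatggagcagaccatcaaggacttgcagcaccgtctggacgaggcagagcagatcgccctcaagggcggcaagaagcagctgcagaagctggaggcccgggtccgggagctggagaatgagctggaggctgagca
The authors aligned with TopHat and counted with htseq-count and stated no option for such reads. By default htseq-count leaves out reads aligned to several places, and a limit on reads given to the wrong gene was also set from the data. In the library with the lowest ratio, Sham-Veh 3, Myh7 counts were 0.256% of Myh6 counts, so no more than this share of Myh6 reads was counted as Myh7 there. Applied to every library, this ceiling came to 415 to 811 counts in TAC-Veh and 671 to 913 in TAC-THZ1, at most 3.75% and 10.3% of the Myh7 counts. In the sham libraries the ceiling was 43.0% or more of the Myh7 counts, so the low Myh7 level there is uncertain.

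Each of the 3 heavy chain genes holds a microRNA in an intron on its own strand. Mir208a lies in intron 29 of Myh6 (chr14:55567897-55567979, NCBIM37), Mir208b in intron 31 of Myh7 (chr14:55594537-55594613) and Mir499 in intron 19 of Myh7b (chr2:155448616-155448694). Their mature sequences from RefSeq (GRCm38.p6) are printed because they are made from the same primary transcripts as the members, with the seed, bases 2 to 8, in capitals.
mmu-miR-208a-3p: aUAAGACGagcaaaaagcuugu
mmu-miR-208b-3p: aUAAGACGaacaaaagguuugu
mmu-miR-499-5p: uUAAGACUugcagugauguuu
The seed was the same in miR-208a-3p and miR-208b-3p, and miR-499-5p shared its bases 2 to 7. The microRNAs themselves were not analysed here.

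The promoters of the pair whose levels moved in opposite directions are printed from RefSeq on GRCm38.p6, as the 250 bases before the annotated start nearest to the coding sequence. Myh6 lies at chr14:54966608-54966857 and Myh7 at chr14:54994550-54994799, both minus strand, and capitals mark motif matches.
Myh6: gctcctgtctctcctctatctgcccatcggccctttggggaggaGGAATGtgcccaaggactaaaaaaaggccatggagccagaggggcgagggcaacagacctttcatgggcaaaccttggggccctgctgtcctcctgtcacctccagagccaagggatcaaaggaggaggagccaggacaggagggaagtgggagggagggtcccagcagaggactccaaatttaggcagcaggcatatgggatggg
Myh7: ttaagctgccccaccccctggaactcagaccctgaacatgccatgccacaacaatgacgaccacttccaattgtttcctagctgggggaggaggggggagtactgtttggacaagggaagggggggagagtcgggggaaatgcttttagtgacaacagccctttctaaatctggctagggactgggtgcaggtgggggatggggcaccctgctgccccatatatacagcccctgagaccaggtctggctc
Both strands were searched for 6 motifs of muscle and hormone-dependent promoters. The Myh6 window held 1 match, to the M-CAT motif, on the other strand at bases -206 to -201 from the start, overlapping no other motif, and the Myh7 window held none of the 6 motifs. M-CAT, spelled CATTCC, was present in 12.6% of 32851 such windows of all genes. The letters AGATAA, a binding motif of GATA factors, were present in 9.99% of them. The thyroid hormone half-site, searched as AGGTCA, was present in 14% of the windows. The TATA motif, searched as TATAAA, was present in 12.4%, the MEF2 motif in 0.508% and the CArG motif in 1.47%. A missing match says only that these letters are not in this window.

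In sham hearts, levels per kilobase of the longest coding transcript put Myl2 first, at 248735 ± 4180 normalized counts per kb (SD, n = 4, Sham-Veh). Myl3 followed at 116303, Myh6 at 82432, Mylk3 at 4405, Myh7b at 493, Myh7 at 363 and Myl4 at 35.8. Per kilobase of all annotated exons, which are longer for Myl2 and Myl4, the order of these genes in Sham-Veh was the same except that the distance from Myl2 to Myl3 shrank to 113398 against 83977. The atrial regulatory light chain Myl7 (chromosome 11, 5796640 to 5798785) had 23 reads over all 16 libraries, 0 reads in 6 of them and at most 9 in 1 library. A count of 0 allows up to 3 reads, so most Myl7 libraries were within this limit, and Myl7 was not tested. The atrial genes Sln and Bmp10 likewise reached at most 4 reads and 1 read in any library, whereas other genes of the same list were well detected, such as the potassium channel genes Kcnj3 and Kcnj5 with medians of 1615 and 1721 normalized counts. Of the 9 atrial markers other than the members, 6 were tested, and with TAC 1 rose and 3 fell, where 45.0% of all genes tested rose or fell. The summed level of the 9 atrial markers was 4528 to 5124 in Sham-Veh and 2357 to 2607 in TAC-Veh. Of the 13 fast or developing skeletal muscle markers, summed levels stayed at 81 to 131 normalized counts over the libraries.

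The first comparison, TAC-Veh with Sham-Veh, asks what pressure overload does to these genes. Myh7 rose 19.0-fold, while Myh6 fell to 0.435 of its sham level, Myh7b to 0.447 and Mylk3 to 0.641. The ventricular light chain genes Myl2 and Myl3 and the atrial Myl4 did not pass the test. A gene was called at an adjusted p under 0.05 with limma. By this rule 4 of the 7 members tested were called, 1 higher and 3 lower, where 45.0% of all 13331 genes tested were called, 21.4% higher and 23.6% lower. The same 4 members were those whose TAC-Veh and Sham-Veh libraries did not overlap, which held for 37.3% of all genes, 18.2% higher and 19.1% lower. With the added threshold of the study, a log2 fold change of at least 1, Myh7 stayed called higher and Myh6 and Myh7b lower, where 4.64% of all genes were called higher and 3.37% lower. The median log2 fold change was -0.40 over the members and -0.00 over all genes.

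Myh7 had normalized counts of 2787, 2268, 1251 and 2729 in Sham-Veh and of 75096, 49604, 16757 and 44752 in TAC-Veh. The lowest TAC-Veh library stood well above the highest sham library, although TAC-Veh spanned 4.48-fold between its mice. The log2 fold change was 4.24 ± 0.47 (SE, adjusted p = 3.98e-06).

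Myh6 had 468904, 528707, 489627 and 517185 in Sham-Veh and 176848, 162375, 245735 and 317577 in TAC-Veh. No TAC-Veh mouse reached the sham range, and the log2 fold change was -1.20 ± 0.19 (adjusted p = 1.01e-04). Myh6 and Myh7 together fell from 503364 ± 27052 to 272186 ± 63912 normalized counts (SD, n = 4 each), so the gain of Myh7 was smaller in counts than the loss of Myh6.

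Myh7b (chromosome 2, 155436948 to 155460043) had 2883 to 3216 in Sham-Veh and 1058, 897, 1671 and 2132 in TAC-Veh. It moved with Myh6 and not with Myh7, with a log2 fold change of -1.16 ± 0.19 (adjusted p = 1.57e-04).

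**Figure D1:**
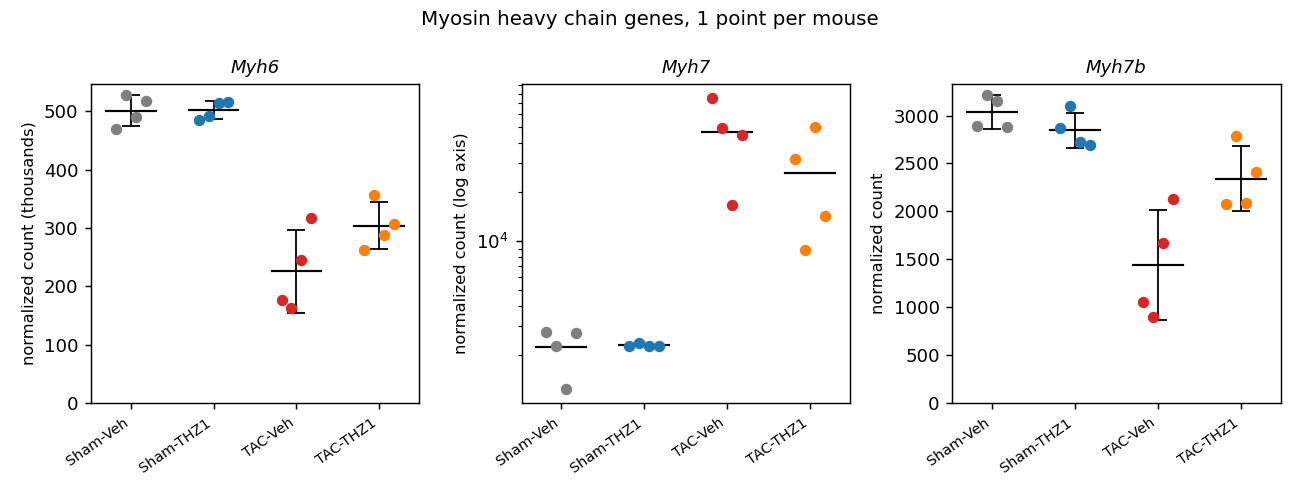
Normalized counts of the 3 heavy chain genes (y axis, with a scale of its own in each panel, which is a log axis for Myh7) in the 4 groups (x axis), with a point for each mouse, a line at the group mean and, for Myh6 and Myh7b, bars of ± SD. TAC libraries of Myh7 lie between 8845 and 75096, all above the sham libraries, and those of Myh6 lie between 162375 and 357361, all below them.

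Mylk3 (chromosome 8, 87848202 to 87910244) had 15567 to 17455 in Sham-Veh and 10507, 8932, 10703 and 11739 in TAC-Veh. The groups did not overlap, the spread within TAC-Veh was 1.31-fold, and the log2 fold change was -0.64 ± 0.08 (adjusted p = 1.84e-05).

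Myl2 (chromosome 5, 122550960 to 122563481) had 216224 to 225262 in Sham-Veh and 226885, 121046, 191440 and 148996 in TAC-Veh. The TAC-Veh mice lay on both sides of the sham range, with a log2 fold change of -0.40 ± 0.16 (adjusted p = 0.0545). Myl2 passed the test under 9 of 32 alternatives, among them DESeq2 (adjusted p = 0.0281), and its log2 fold change was -0.55 without TAC-Veh 1 (adjusted p = 0.00829), -0.47 without TAC-Veh 3 (0.0388) and -0.40 without TAC-THZ1 2 (0.0490). Myl3 (chromosome 9, 110666150 to 110672308) had 107049 to 112177 in Sham-Veh and 113209, 70053, 106252 and 86072 in TAC-Veh, with a log2 fold change of -0.25 ± 0.13 (adjusted p = 0.132). Without TAC-Veh 1 it was -0.35 (adjusted p = 0.0374).

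Myl4 (chromosome 11, 104411977 to 104457067) stayed low, at 28.1 to 37.9 in Sham-Veh and at 81.1, 35.8, 40.6 and 36.6 in TAC-Veh. A single mouse, TAC-Veh 1, stood apart, and the log2 fold change of 0.43 ± 0.23 did not pass the test (adjusted p = 0.142) and was 0.16 without that mouse.

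Markers of the cells in the tissue moved as well. Of 11 cardiomyocyte markers other than the members, 5 were called lower and 0 higher with TAC, with a median log2 fold change of -0.28. Of all genes tested, 23.6% were called lower and 21.4% higher with TAC. The summed level of the cardiomyocyte markers was 973274 to 1031865 in Sham-Veh, 979019 to 1009817 in Sham-THZ1, 692228 to 939253 in TAC-Veh and 972304 to 1161268 in TAC-THZ1, and none was at 0 in any group. Of 7 fibroblast markers, TAC raised 5, and 5 were called lower in TAC-THZ1 than in TAC-Veh, where 14.2% of all genes were called lower. The summed level of the fibroblast markers was 26833 to 29762 in Sham-Veh, 26059 to 28568 in Sham-THZ1, 51523 to 91604 in TAC-Veh and 27895 to 39367 in TAC-THZ1. Summed smooth muscle markers (5 genes) stood at 6644 to 8319 in Sham-Veh, 7579 to 8632 in Sham-THZ1, 4944 to 5884 in TAC-Veh and 4899 to 6752 in TAC-THZ1. Endothelial markers (5 genes) stood at 18439 to 20303, 20361 to 21894, 16261 to 20895 and 15246 to 16573 in the same order, and blood and immune markers (5 genes) at 6933 to 7450, 6258 to 9615, 8856 to 12973 and 7202 to 26695. The part of these cell types in the members' differences was not tested. In tissue pieces, fewer cells of a type and less RNA per cell cannot be told apart. After scaling each library to the cardiomyocyte markers, which moved the median of all genes by 0.32 with TAC and by -0.32 with THZ1 in TAC, Myh7 (log2 fold change 4.57), Myh6 (-0.87), Myh7b (-0.83) and Mylk3 (-0.31) were still called with TAC. Under that scaling Myl2 was at -0.07, Myl3 changed sign to 0.08, and Myl4 was called higher at 0.76 (adjusted p = 0.00876).

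The isoform switch was also measured as the share of Myh7 in the sum of Myh6 and Myh7, per kilobase of transcript, which no scaling of a library can change. The share was 0.577, 0.417, 0.249 and 0.512% in Sham-Veh and 0.456, 0.470, 0.433 and 0.430% in Sham-THZ1. It was 29.3, 23.0, 6.24 and 12.1% in TAC-Veh and 10.6, 2.36, 14.5 and 4.31% in TAC-THZ1. The sham groups overlapped and stayed under 1%, whereas every TAC library stood above them, with a wide range that overlapped between vehicle and THZ1.

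The Myh7 to Myh6 ratio of counts rose 43.6-fold from Sham-Veh to TAC-Veh, a difference of 5.45 on the log2 scale (exact two-sided permutation test, p = 0.0286, the smallest that 4 against 4 can give, adjusted p = 0.0476 over 10 tests of ratios). It was 15.2-fold higher in TAC-THZ1 than in Sham-THZ1, a difference of 3.93 (exact permutation p = 0.0286, adjusted p = 0.0476). From TAC-Veh to TAC-THZ1 the ratio was lower by 1.42 on the log2 scale, which did not pass (exact permutation p = 0.171, adjusted p = 0.214), and the difference between the effects of THZ1 in TAC and in sham was -1.52 (permutation of drug labels within each surgery, p = 0.142, adjusted p = 0.203). Between the sham groups it was 0.10 (exact permutation p = 0.857), and it changed sign to -0.16 without Sham-Veh 3.

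**Figure D2:**
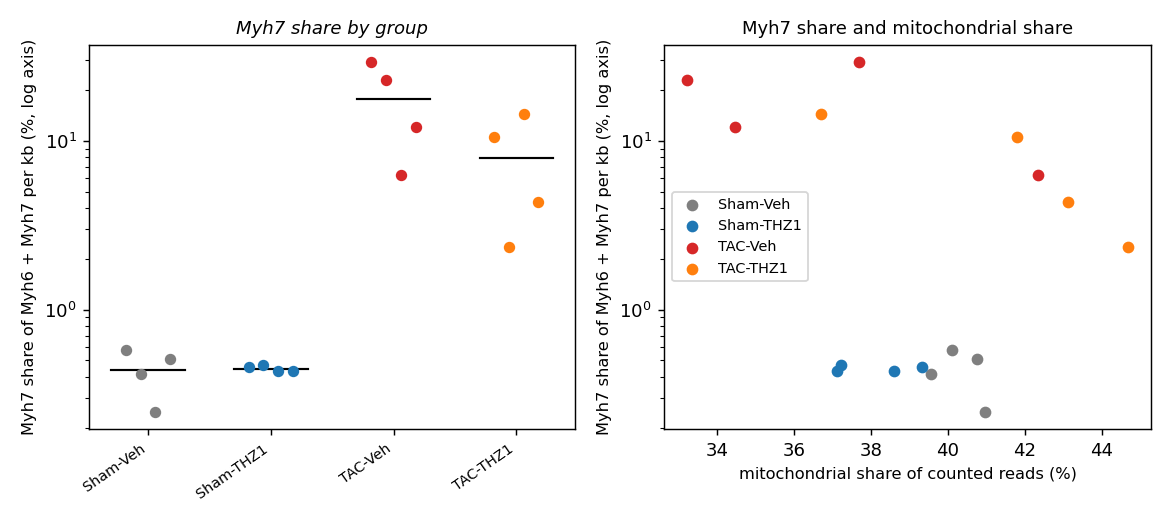
Share of Myh7 in the sum of Myh6 and Myh7 per kb of transcript (y axis, percent, log axis), by group with a line at the mean (left) and against the mitochondrial share of the counted reads in percent (right), with a point for each mouse. Sham libraries lie at 0.249 to 0.577% and TAC libraries at 2.36 to 29.3%, and the 3 TAC libraries with the lowest Myh7 share have the 3 highest mitochondrial shares, while TAC-Veh 1, with the highest Myh7 share, lies in the middle.

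The second comparison, TAC-THZ1 with TAC-Veh, asks how these genes differed with the drug in TAC hearts. Myl2 rose 1.60-fold, Myl3 1.37-fold, Myh7b 1.71-fold and Mylk3 1.31-fold, whereas the heavy chain pair Myh6 and Myh7 did not pass the test. Of those that rose, Myl2 and Myl3 had not been called with TAC. By the same rule 4 of 7 members were called, all higher, where 29.4% of all genes were called and 15.1% were called higher and 14.2% lower. With the added threshold of the study for this comparison, 0.89 on the log2 scale, 0 of 7 were called, where 1.85% of all genes were called higher and 3.62% lower. In this comparison Myl2 and Mylk3 did not overlap between the groups, which held for 20.0% of all genes, 9.53% higher and 10.5% lower. The median log2 fold change was 0.46 over the members and 0.01 over all genes.

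These calls depended on the estimate of spread, which all 4 groups shared. With the TAC groups fitted alone, 0 of 7 members were called at an adjusted p under 0.05 in limma, with adjusted p of 0.0520 (Mylk3), 0.0685 (Myh7b), 0.102 (Myl2) and 0.150 (Myl3). Over all genes that fit called 1399, against 3918. Scaled to the cardiomyocyte markers, which rose with THZ1 in TAC (5 of 11 called higher, 0 lower, median log2 fold change 0.40), Myl2 (0.34) and Myh7b (0.44) were still called and Mylk3 (0.05) and Myl3 (0.12) were not. The same scaling added calls of a lower Myh7 (-1.29, adjusted p = 0.0326) and a lower Myl4 (-0.88, adjusted p = 0.00449), beside the shift of -0.32 in the median of all genes.

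Myl2 had 244174, 316186, 252383 and 262638 in TAC-THZ1, above all TAC-Veh mice and also above the sham range of 211161 to 225518. Its log2 fold change against TAC-Veh was 0.68 ± 0.16 (adjusted p = 0.00584). Against Sham-THZ1 it was 0.28 ± 0.16, and although these groups did not overlap the difference did not pass the test (adjusted p = 0.213).

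Myl3 had 112139, 141424, 122137 and 132402 in TAC-THZ1, of which only the lowest lay within the TAC-Veh range, with a log2 fold change of 0.46 ± 0.13 (adjusted p = 0.0156). Without TAC-THZ1 2 the call was lost (0.40, adjusted p = 0.0506).

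Mylk3 had 13877, 15246, 12079 and 13631 in TAC-THZ1, all above the TAC-Veh mice and mostly below the sham mice. Its log2 fold change was 0.39 ± 0.08 (adjusted p = 0.00288). It was also the only member called for a difference in the response to THZ1 between TAC and sham hearts, at 0.46 ± 0.12 (adjusted p = 0.0241). Of all genes, 10.0% were called for this interaction, 4.40% with a positive and 5.62% with a negative difference. The estimates for Myh7b and Myl2, given below, were larger but did not pass. The Mylk3 call was lost without Sham-Veh 2 (0.43, adjusted p = 0.0573), without Sham-THZ1 1 (0.44, 0.0528) or without TAC-THZ1 2 (0.41, 0.0542), and with cardiomyocyte marker scaling the difference was 0.09 (adjusted p = 0.554).

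**Figure D3:**
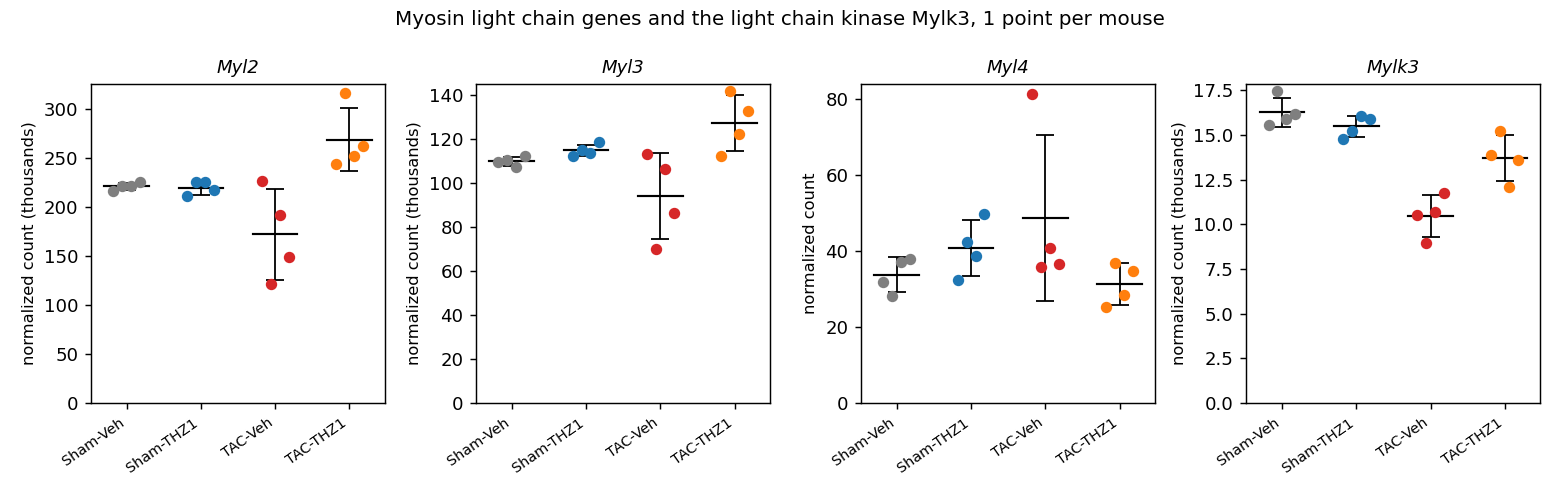
Normalized counts (y axis, with a scale of its own in each panel) of 3 light chain genes and of the kinase gene Mylk3 in the 4 groups (x axis), with a point for each mouse and the group mean with bars of ± SD. TAC-THZ1 libraries of Myl2 lie at 244174 to 316186, above every other library, and Myl4 stays at 25.1 to 81.1.

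Myh7b had 2073, 2789, 2090 and 2409 in TAC-THZ1, and the highest TAC-Veh mouse, at 2132, lay above 2 of them. The log2 fold change was 0.78 ± 0.19 (adjusted p = 0.00668). Its difference between the effects of THZ1 in TAC and in sham was 0.87 ± 0.27, just outside the threshold (adjusted p = 0.0512), and it passed without TAC-Veh 3 (0.97, adjusted p = 0.0237) or TAC-Veh 4 (1.09, 0.00622). For Myl2 that difference was 0.69 ± 0.23 (adjusted p = 0.0671), and it passed without TAC-Veh 1 (0.83, 0.0192) or TAC-Veh 3 (0.75, 0.0375). With DESeq2 it passed for Myh7b (0.79, adjusted p = 0.0342) and for Myl2 (0.65, adjusted p = 0.0154). Of 31 alternatives, it passed in 4 for Myh7b and in 7 for Myl2.

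Myh6 had 262747, 357361, 287475 and 307407 in TAC-THZ1, which overlapped with TAC-Veh. The log2 fold change was 0.47 ± 0.19 (adjusted p = 0.0701), and it was called with DESeq2 (0.43, adjusted p = 0.0269) and without TAC-Veh 4 (0.65, adjusted p = 0.0101). It was 0.13 with scaling to the cardiomyocyte markers (adjusted p = 0.394), 0.22 with quantile normalization (adjusted p = 0.404) and 0.33 without TAC-Veh 2 (adjusted p = 0.168). Against Sham-THZ1, whose mice had 485692 to 516004, Myh6 in TAC-THZ1 was lower by 0.73 ± 0.19 (adjusted p = 0.0119), with no overlap between the groups. That call was lost with no filter on low counts (adjusted p = 0.0779) and with quantile normalization (-0.53, adjusted p = 0.0560).

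Myh7 had 31818, 8845, 49784 and 14202 in TAC-THZ1, a 5.63-fold range within a group given the same surgery and drug. The mean fell between those of TAC-Veh and the sham groups, yet the log2 fold change of -0.95 ± 0.47 against TAC-Veh did not pass the test (adjusted p = 0.135), and its 95% interval, from the moderated t distribution of that test, ran from -1.94 to 0.03. Against Sham-THZ1, whose mice had 2278 to 2379, Myh7 remained 9.15-fold higher in TAC-THZ1, with no overlap. Single libraries moved the first of these values both ways. Against TAC-Veh the log2 fold change was -1.38 without TAC-Veh 3 (adjusted p = 0.0224) and -1.37 without TAC-THZ1 3 (adjusted p = 0.0310). It shrank to -0.53 without TAC-THZ1 2 (adjusted p = 0.409) and to -0.66 without TAC-Veh 1 (adjusted p = 0.312).

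The spread of Myh7 was wide against other genes. Its SD on the log2 scale was 1.12 in TAC-THZ1, where the median gene had 0.14 and 99.3% of genes had a smaller SD, and in TAC-Veh it was 0.92, where 97.9% had a smaller one. In Sham-Veh it was 0.54, where 97.4% had a smaller one, whereas in Sham-THZ1 it was small, at 0.03. Myh6, by contrast, had an SD of 0.45 in TAC-Veh and of 0.19 in TAC-THZ1.

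Mitochondrial reads moved with this spread among the TAC-THZ1 mice and only in part among the TAC-Veh mice. Their share was 37.7, 33.2, 42.3 and 34.5% in TAC-Veh mice 1 to 4 and 41.8, 44.7, 36.7 and 43.1% in TAC-THZ1 mice 1 to 4. In both groups the mouse with the largest share had the lowest Myh7, and among the TAC-THZ1 mice the orders were exactly opposite. With the mitochondrial share as a covariate, the log2 fold change of Myh7 for THZ1 in TAC was 0.02 ± 0.39 (adjusted p = 0.983), Mylk3 (0.30, adjusted p = 0.0492) was the only one of the 7 members called, and Myl2 was at 0.44 (adjusted p = 0.0699). Over all 13331 genes, that covariate fit called 1357 for THZ1 in TAC, against 3918 without the covariate. Myh7 still rose with TAC, by 3.53 (adjusted p = 6.67e-06), and Myh6 still fell, by 1.13 (adjusted p = 2.86e-04). The part of the mitochondrial share in the difference between the TAC groups was not tested further.

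**Figure D4:**
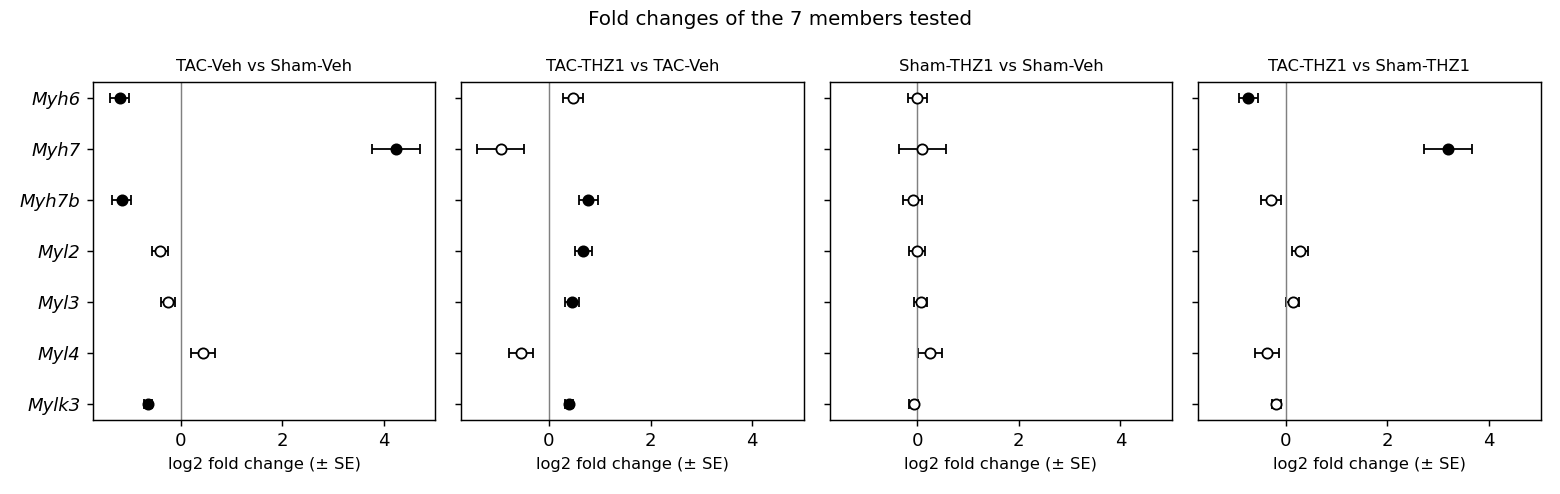
Log2 fold changes (x axis, bars ± SE) of the 7 members tested (y axis) in the 4 comparisons of groups, with filled points at an adjusted p under 0.05 and open points otherwise. Filled points number 4 for TAC-Veh against Sham-Veh, 4 for the drug in TAC hearts, 0 for the drug in sham hearts and 2 for TAC-THZ1 against Sham-THZ1.

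Between TAC-THZ1 and Sham-THZ1, 2 of 7 members were called, Myh7 higher and Myh6 lower, where 24.2% of all genes were called, 11.4% higher and 12.8% lower. Myh7, Myl2 and Myh6 did not overlap between these groups, which held for 33.4% of all genes, 15.7% higher and 17.7% lower. Myh7b (-0.29 ± 0.19), Myl3 (0.14 ± 0.13), Myl4 (-0.37 ± 0.23) and Mylk3 (-0.18 ± 0.08) did not pass. This comparison shares its TAC-THZ1 libraries with the previous one, so the 2 are not independent.

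In sham hearts no member passed the test for THZ1. With limma 0 of 7 were called, where 0.0675% of all genes were called. At an unadjusted p under 0.05 in limma there were also 0, where 917 of 13331 genes were under it. Likewise 0 were called with edgeR, against 10 of all genes, and 0 with DESeq2, against 33. The total over all genes depended on the estimate of spread. It was 465 with the sham groups fitted alone and 513 with array weights, against 9 in the fit used throughout, and 0 members were called in each. No member was without overlap between the sham groups, against 11.3% of all genes. Log2 fold changes ran from -0.09 (Myh7b) to 0.26 (Myl4). The 95% interval for Myl2 was -0.35 to 0.34, and for Myh7 it was -0.89 to 1.09. These intervals used the spread shared by all 4 groups, so that fit could not exclude a change of Myh7 within its interval. With the sham groups fitted alone, the log2 fold change of Myh7 was 0.10 ± 0.18 (SE).

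The low Myl4 was set against its ventricular counterpart Myl3 within each library. The ratio of Myl4 to Myl3 counts was 0.000255 to 0.000347 in Sham-Veh, 0.000287 to 0.000420 in Sham-THZ1, 0.000382 to 0.000717 in TAC-Veh and 0.000224 to 0.000262 in TAC-THZ1. TAC-Veh lay above Sham-Veh and TAC-THZ1 below Sham-THZ1, with no overlap in either comparison. On the log2 scale the ratio was higher by 0.69 with TAC, lower by 1.02 in TAC-THZ1 than in TAC-Veh and lower by 0.52 in TAC-THZ1 than in Sham-THZ1 (exact permutation p = 0.0286 each, adjusted p = 0.0476), and the effect of THZ1 in TAC differed from that in sham by -1.21 (permutation p = 0.00367, adjusted p = 0.0367). Without any 1 of the Sham-Veh libraries the TAC difference, and without any 1 of the TAC-THZ1 libraries the difference between the THZ1 groups, had an exact permutation p of 0.0571, at values from 0.61 to 0.75 and from -0.55 to -0.48. The groups still did not overlap in these tests, where p moves in steps of 0.0286 with 3 against 4. Behind these ratios stand at most 69 Myl4 reads per library. Myl4 by itself did not pass in limma. Its log2 fold change was -0.55 ± 0.23 (adjusted p = 0.0897) for TAC-THZ1 against TAC-Veh, where Myl3 rose by 0.46. For the difference between the effects of THZ1 in TAC and in sham it was -0.80 ± 0.33 (adjusted p = 0.129).

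Sums per kilobase compared the chains with each other. Regulatory light chain transcripts, Myl2 and Myl7, stood to heavy chain transcripts, Myh6, Myh7 and Myh7b, at 2.99 ± 0.13 in Sham-Veh and 2.97 ± 0.10 in Sham-THZ1. In TAC-Veh the mice spread over 6.18, 3.91, 4.96 and 2.80, the last below the lowest sham library at 2.84, and in TAC-THZ1 they stood at 5.64, 5.86, 5.10 and 5.55, all above the sham hearts. Essential light chain transcripts, Myl3 and Myl4, stood to heavy chain transcripts at 1.40 ± 0.06 in Sham-Veh and had a mean ratio of 2.29 ± 0.60 in TAC-Veh and of 2.47 ± 0.13 in TAC-THZ1. The level of such a ratio depends on the transcript length chosen, and with the exon lengths the first was 1.44 in Sham-Veh and 2.71 in TAC-THZ1. If reads that fit both Myh6 and Myh7 were left out of the counts, these ratios to the heavy chains are too high.

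Among related genes, the other striated myosin genes were mostly too low to test, with 5 of 12 tested. With TAC 2 rose and 1 fell, and with THZ1 in TAC 1 rose and 1 fell, with Mylk2 counted in both. Beside this and the next list, 45.0% of all genes tested were called with TAC and 29.4% with THZ1 in TAC. Mylk2, the skeletal muscle light chain kinase gene, stood at 1.60 ± 0.63 in Sham-Veh, 19.1 ± 8.6 in TAC-Veh and 5.50 ± 3.83 in TAC-THZ1, with log2 fold changes of 2.84 ± 0.49 with TAC and -1.69 ± 0.49 for TAC-THZ1 against TAC-Veh (adjusted p = 2.33e-04 and 0.0166). Mylk4, a kinase gene of the myosin light chain kinase family, fell from 4931 ± 777 to 932 ± 469 normalized counts with TAC (log2 fold change -2.54 ± 0.28, adjusted p = 3.82e-06) and stood at 1766 ± 458 in TAC-THZ1 (1.04 ± 0.28 against TAC-Veh, adjusted p = 0.0108). Myl1, an essential light chain gene of fast muscle, rose with TAC by 0.84 ± 0.23 (adjusted p = 0.00750). Of the 10 non-muscle and smooth muscle myosin genes, 5 rose and 3 fell with TAC, and 0 rose and 4 fell with THZ1 in TAC. Myh11, the smooth muscle heavy chain gene, fell with TAC by 0.95 ± 0.23, beside the lower summed smooth muscle markers, of which it is one, and the light chain genes Myl6 (0.79 ± 0.14) and Myl12a (0.78 ± 0.11), listed as 2900073G15Rik, rose. With THZ1 in TAC the non-muscle heavy chain genes Myh10 (-0.62 ± 0.10) and Myh9 (-0.56 ± 0.17) and Myl6 (-0.47 ± 0.14) fell.

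Of 12 genes of thick filament partners and light chain phosphatase, 2 rose and 3 fell with TAC, where 45.0% of all genes were called. With THZ1 in TAC 0 rose and 1 fell, where 29.4% of all genes were called, so neither count exceeded the share over all genes. Mybpc2, the gene of the fast skeletal myosin-binding protein C, rose by 0.81 ± 0.19 with TAC (adjusted p = 0.00260) and was higher by 0.72 ± 0.19 in TAC-THZ1 than in Sham-THZ1 (adjusted p = 0.0142). Unc45b, which encodes a chaperone for myosin folding in muscle, fell by 0.60 ± 0.10 (adjusted p = 2.18e-04) with TAC. Ppp1r12b, a myosin phosphatase subunit gene, fell by 0.49 ± 0.12 (adjusted p = 0.00321). Ppp1r12a, which encodes a related subunit, fell by 0.31 ± 0.08 with THZ1 in TAC (adjusted p = 0.00747).

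Of 20 regulators of myosin genes, 1 rose and 13 fell with TAC, where 21.4% of all genes were called higher and 23.6% lower. With THZ1 in TAC 7 rose and 2 fell, where 15.1% of all genes were called higher and 14.2% lower. Dio2, whose enzyme turns the prohormone of thyroid hormone into its active form, rose from 47.3 ± 11.9 to 1224 ± 604 with TAC and stood at 148 ± 67 in TAC-THZ1 (log2 fold changes 4.55 ± 0.37 and -3.05 ± 0.37). Its response to THZ1 differed between TAC and sham hearts by -2.88 ± 0.53 (adjusted p = 0.00482). Thrb, a thyroid hormone receptor gene, fell with TAC by 1.00 ± 0.10, and Tbx5, a cardiac transcription factor gene, by 1.19 ± 0.13. With THZ1 in TAC Tbx5 rose by 0.62 ± 0.13 and Hdac9, a histone deacetylase gene, by 0.51 ± 0.13.

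Over the 16 libraries, among the 10317 genes whose mean normalized count was 100 or more, the genes most like Myh7 in pattern were Nppa (Pearson r = 0.97), Gas6 (0.96), Tnip1 (0.96), Tgm2 (0.95) and Ckap4 (0.95). Those most like Myh6 were Atp2a2 (0.99), which encodes the calcium pump of the sarcoplasmic reticulum, Mylk4 (0.99), Esrrg (0.99) and March6 (0.99). For Myl4 the highest values were lower, with Adamts9 (0.87), Endou (0.87), Ptbp2 (0.86), 4930523C07Rik (0.85) and Armcx5 (0.85). Within the family, Myh6 had r = 0.94 with Myh7b, 0.93 with Mylk3, -0.92 with Myh7, 0.40 with Myl3 and 0.36 with Myl2. These values describe 16 points in 4 groups and largely follow the group means.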

How the data were processed

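RNA was sequenced from ventricle pieces of 16 mice in 4 groups of 4. The authors aligned reads with TopHat2 2.1.1 to mm9, counted them per gene with HTSeq and divided them by DESeq2 size factors, and this normalized count is the deposited signal. Whole reads could be recovered from it for 100% of values (within 0.001 of a whole number), giving 21431703 to 35812869 per library. The 16 columns were mapped to samples by name, and no column was left over. Positions and transcripts came from GENCODE vM1 on NCBIM37.

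Group means of log2(normalized count + 1) over all 16 libraries were compared with limma 3.58.1 in R 4.3.3 (eBayes with trend), on 13331 genes with at least 10 normalized counts in at least 4 libraries, and p-values were adjusted by Benjamini-Hochberg within each of 5 contrasts. A log2 fold change on this scale understates that of low genes. Ratios were compared with exact two-sided permutation tests, adjusted over the 10 tests run. The Myl7 to Myl2 ratio was not tested because Myl7 was at 0 in 6 libraries. Alternatives covered the pseudocount, filters, scalings, separate fits, robust and weighted fits, the replicate number as a block, leaving out each library, and tests of the recovered reads with edgeR 4.0.16 (6067 genes called with TAC and 3981 with THZ1 in TAC) and DESeq2 1.42.0 (6138 and 4170). The mitochondrial share as a covariate and shares per transcript length were added after seeing the data. Scripts were tested on simulated data.

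All 8 members are described. Other genes are those of the lists with up to 3 of the largest changes past the adjusted p, and the 5 of highest Pearson r, of which 1 is not reported here. The gene lists matched all symbols except Purb and Tnnc1, each shared by 2 identifiers. Members and lists were chosen with earlier results of these data known. The mice were separate animals, the labels gave no batch, so the spread between libraries includes that between mice. Alignments were drawn with Biopython 1.88 and figures with matplotlib 3.10.9.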

Additional observations from a re-analysis of the deposited data

Results flagged for a closer look

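Among 36 groups of 4 libraries examined for a single value far from the rest, of which chance flags about 1 in 20, there were 2. Myl4 in TAC-Veh had 1 mouse at 81.1 normalized counts against 35.8 to 40.6 in the others, a gap of 0.893 of the range. Myh7 in Sham-THZ1 had 1 mouse at 2379 against 2278 to 2291, a gap of 0.877 of a range that was itself small.

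Mylk3 was called for a different response to THZ1 in TAC than in sham hearts, with a difference of 0.46 on the log2 scale (adjusted p = 0.0241 with limma). As given above, that call was lost without certain single libraries and with cardiomyocyte marker scaling. The Myl4 to Myl3 ratio likewise responded differently, by -1.21 on the log2 scale (permutation p = 0.00367, adjusted p = 0.0367). Myl4 by itself did not pass for this difference (-0.80, adjusted p = 0.129 with limma).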

How the results depend on the processing

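Members called with TAC numbered 3 to 6 of 7 over 33 alternatives, and 0 with THZ1 in sham hearts over all 32. With THZ1 in TAC there were 0 with the groups compared alone, 0 at the fold threshold of the study (0.89 on the log2 scale), 1 with the mitochondrial share as a covariate and 3 to 5 when a library was left out. TAC-THZ1 against Sham-THZ1 gave 1 with no filter on low counts. The interaction gave 2 with quantile normalization, with scaling by reads outside the mitochondrial genome and with robust eBayes, 3 with DESeq2, 4 with array weights, 0 with the mitochondrial covariate and 0 to 3 when a library was left out. The totals over all genes moved too. Of 13331 genes the interaction called 1336 in the fit used throughout. It called 1455, 1284, 1344, 1835, 1832 and 29 under the named settings in the same order. THZ1 in TAC called 3918 in the fit used throughout, 1399 with the groups compared alone and 1357 with the mitochondrial covariate. Without the filter, TAC-THZ1 against Sham-THZ1 called 2914 of 17888 genes, against 3220 of 13331 with it. The causes were not tested.

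With the replicate number as a block, which allows no p under 0.125 for 4 pairs in the tests of ratios, the Myh7 to Myh6 differences (5.45 for TAC, 3.93 for TAC-THZ1 against Sham-THZ1) and the Myl4 to Myl3 differences (0.69, -1.02 and -0.52) kept their values and had p = 0.125 by exact sign flips. The block changed no other call of the members. The deviations of libraries with the same number had a median correlation of 0.02 (lowest -0.43 over 24 pairs). Over 72 pairs of different number it was 0.00055, and 2 of 16 libraries correlated best with their own number. The labels do not say whether equal numbers share more than a number, and these correlations cannot decide it.

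Leaving out a library, the Myl4 to Myl3 difference ran from 0.51 to 0.82 with TAC and from -0.62 to -0.44 between the THZ1 groups, with p up to 0.0571. The Myh7 to Myh6 difference between the sham groups ran from -0.16 to 0.25. Signs changed for Myl3 with TAC under cardiomyocyte marker scaling (0.0794), and with the mitochondrial covariate for Myh7 with THZ1 in TAC (0.0194), for the Myh7 interaction (0.40) and for Myl3 between the THZ1 groups (-0.00518). Of 223 values of single members with TAC over the alternatives, 211 kept their direction and their side of the threshold, and so did 202 of 223 with THZ1 in TAC. Scaling to cardiomyocyte markers turned the split of all genes to 6325 called higher and 901 lower with TAC and to 381 and 6161 with THZ1 in TAC, and scaling by reads outside the mitochondrial genome to 3496 and 2361 and to 1440 and 2411. Depth limits Myl4 (at most 69 reads a library) and Myl7 (at most 9).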
